A study of Mus musculus with 8 samples.

Results

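A set of 10 genes of the integrated stress response (ISR) and the unfolded protein response (UPR) were followed in bulk RNA-seq of MC38 tumors that had or had not been exposed to violet light. They are named genes of the ATF4, CHOP and XBP1 pathways, listed by symbol and not by a cutoff on their values. The list was made with earlier results of these data known. The count table holds 24421 genes, and all 10 were among the 14468 genes that passed the expression filter. MC38 is a mouse colon adenocarcinoma line, grown in female B6 Kaede mice aged 9 weeks after injection of 250000 cells, and Kaede is a protein whose fluorescence turns from green to red under violet light. On day 10, 4 tumors, called photoconverted, were lit at 405 nm for 3 min, while 4 control tumors were left unlit, and all were collected 5 h after the light. Mice of both groups carried the Kaede transgene, and the comparison asks whether the light itself alters transcription in the tumor. The labels do not say which tumors shared a cage or a day, and p-values measure the spread between these tumors only.

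The ISR is the arm of stress signaling that begins when a kinase phosphorylates the translation factor eIF2, which lowers protein synthesis in general and favors translation of ATF4, a transcription factor for amino acid supply and redox genes. The UPR reads misfolded protein in the endoplasmic reticulum (ER) through the sensors PERK (Eif2ak3), IRE1 (Ern1) and ATF6. PERK joins the ISR, and IRE1 splices the Xbp1 message so that it encodes an active factor. ATF4 is set mainly by translation and XBP1 by splicing, and gene-level counts measure neither.

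Total counts were 12576615 to 35844417 per tumor. The share of counts on Rn45s, the precursor of ribosomal RNA, lay between 2.70% and 9.65% in 5 tumors and was 21.9% in photoconverted tumor 4, 23.2% in control tumor 4 and 35.7% in control tumor 2. These 3 libraries stood apart, and values without them are given where they change a result. Values below are CPM, counts expressed against a fixed library total, after TMM scaling, which corrects that total for differences in composition, and log2 fold changes are photoconverted over control from edgeR's quasi-likelihood test. In bulk tissue, fewer cells of a type and less RNA per cell cannot be told apart.

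Because many of these genes are described as direct targets of ATF4 or of the ER stress factors, their promoters (250 bases before to 50 after the RefSeq start, build GRCm38.p6, which is mm10, the build in the submitters' processing notes) were searched on both strands. The C/EBP-ATF response element, TGATGNAA, was found in the windows of 4 of the 10 genes, against 3.97% of 32851 windows in all. Each stretch below is written 5′ to 3′ on the strand of the gene, with the match in capitals, since these are the letters to which the ATF4 targets among the 10 genes are usually tied.
Asns, chr6:7693214-7693243, minus strand: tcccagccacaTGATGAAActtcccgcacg
Chac1, chr2:119351038-119351067, plus strand: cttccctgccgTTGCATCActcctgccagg
Herpud1, chr8:94386306-94386335, plus strand: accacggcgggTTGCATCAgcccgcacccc
Trib3, chr2:152344028-152344057, minus strand: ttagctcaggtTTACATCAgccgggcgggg

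The match began 23 bases before the RefSeq start in Asns, 193 in Chac1 and 112 in Herpud1, and lay past the RefSeq start in Trib3. The matches of Chac1, Herpud1 and Trib3 read on the opposite strand. The Asns stretch lies within an exon of GENCODE M21, and those of Chac1 and Herpud1 lie upstream of their exons. In Trib3 the match itself lies upstream of the GENCODE exons, and 5 bases of the printed stretch are exonic. Herpud1 also held the ER stress element II, ATTGG followed after 1 base by CCACG, which 0.0365% of all windows held, beginning 52 bases before its start. A cAMP response element, TGACGTCA, was found in Ppp1r15a (1.79% of all windows). Both are shown because Herpud1 and Ppp1r15a head the ER and the eIF2 feedback arms of the results.
Herpud1, chr8:94386366-94386398, plus strand: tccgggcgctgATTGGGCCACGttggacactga
Ppp1r15a, chr7:45526262-45526291, minus strand: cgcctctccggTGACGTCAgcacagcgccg

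No gene of the 10 had the ER stress element CCAAT followed after 9 bases by CCACG (0.119% of windows) or the XBP1-type element TGACGTGG (0.676%). The heat shock half-pair GAANNTTC (7.86% of windows) was found in Asns alone, where it overlaps the TGATGNAA match. No searched motif was found for Atf4, Ddit3, Sesn2, Xbp1 or Ddit4 in these windows.

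No difference between photoconverted and control tumors was detected for any of the 10 genes. In edgeR, after Benjamini-Hochberg adjustment over all genes tested, 0 of 10 had an adjusted p under 0.05 and each adjusted p was 0.999, where 0% of all genes tested passed. None had an unadjusted p under 0.05, against 2.23% of all genes. DESeq2 gave 0 of 10 at either level, where 24 of the 17005 genes with an adjusted p passed (0.141%). An unadjusted p under 0.05 was found for 569 genes, equal to 3.35% of 17005. That count may include genes without an adjusted p. For limma it was 0 of 10 at either level, with 0% and 1.81% of all genes. No gene of the 10 had groups free of overlap, which 1.33% of all genes had. On average 3 were above their controls (Chac1, Ppp1r15a and Asns) and 7 below. Their median log2 fold change, -0.08, compares with -0.01 over every gene tested. The 95% intervals of the fold changes, which are not adjusted for the number of genes, were narrow for Xbp1 (0.827-fold to 1.10-fold) and Herpud1 (0.744-fold to 1.08-fold) and wide for Trib3 (0.409-fold to 1.69-fold).

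**Figure D1:**
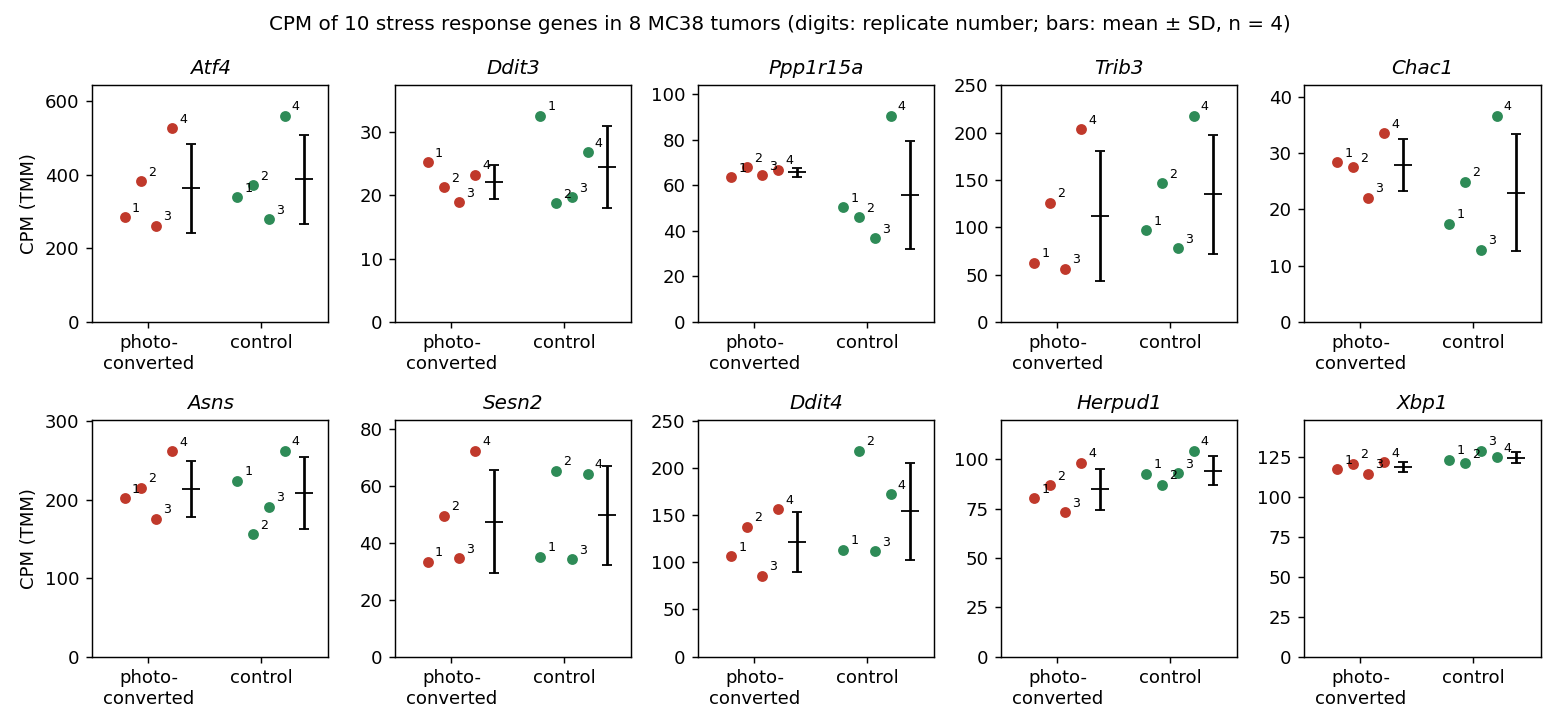
CPM of each gene (vertical axes from 0) in photoconverted (red) and control (green) tumors, with replicate numbers beside the points and the mean ± SD (n = 4) as bars. The groups overlap in all 10 panels, photoconverted values of Ppp1r15a sit close together between 63.4 and 67.8 CPM, and Xbp1 stays between 114 and 129 CPM in all 8 tumors.

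Atf4 (chr15:80255184-80257541, plus strand, GRCm38, as for all positions here) encodes the central ISR factor and was the most abundant of the 10 per kilobase of exon, at 159 ± 47.8 CPM per kb (SD over 8 tumors). Photoconverted tumors 1 to 4 had 284, 382, 261 and 527 CPM of Atf4, and the control tumors, in the same order, 338, 371, 279 and 560 CPM. Tumor 4 was the highest of its group on both sides, and the groups covered the same range. Its log2 fold change was -0.09 (standard error 0.27, unadjusted p = 0.747 in edgeR), and it was at or above 0 in 4 of the alternatives. The two-sided exact permutation test of mean log2 CPM in 8 tumors gave p = 0.743 for Atf4.

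Ddit3 (chr10:127290774-127296288, plus strand) encodes CHOP, the factor that links prolonged ER stress to cell death, and was the lowest of the 10 per kilobase (13.6 ± 2.77 CPM per kb). It had 25.2, 21.3, 18.9 and 23.2 CPM in photoconverted tumors and 32.5, 18.7, 19.7 and 26.7 CPM in control tumors. The highest value was that of control tumor 1 and the lowest that of control tumor 2, so the controls spanned every photoconverted value. For Ddit3 the log2 fold change was -0.14 (standard error 0.20), and it turned to 0.03 without control tumor 1. The hypoxia gene Car9, a carbonic anhydrase, was also highest in control tumor 1 (84.1 CPM against 30.7 to 42.9 CPM in the other controls), and its part in the Ddit3 value was not tested. In GENCODE M21, Ddit3 shares at most 68 exonic bases with a gene on the opposite strand (Mars and Gm4189), and whether the counting used strand is not given in the sources used here.

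Ppp1r15a (chr7:45522916-45526268, minus strand) encodes GADD34, the stress-induced subunit that directs a phosphatase to eIF2 and so ends the ISR. It had 63.4, 67.8, 64.5 and 66.8 CPM in photoconverted tumors and 50.4, 45.8, 36.8 and 90.4 CPM in control tumors. Control tumors 1 to 3 lay below every photoconverted tumor, and control tumor 4 lay above every one. Ppp1r15a had a log2 fold change of 0.23 (standard error 0.25). Its exons share 12 bases with Tulp2 on the opposite strand. Chac1 (chr2:119351229-119354381, plus strand), which encodes an enzyme that degrades glutathione and is a target of ATF4 and CHOP, had 28.4, 27.5, 22.1 and 33.6 CPM in photoconverted tumors and 17.4, 24.9, 12.8 and 36.6 CPM in control tumors. Here too control tumor 4 lay above every photoconverted tumor, while control tumors 1 and 3 lay below every one and control tumor 2 among them. The log2 fold change of Chac1 was 0.28 (standard error 0.30). Among the 45 pairs formed by the 10 genes, Chac1 and Ppp1r15a followed each other across the 8 tumors with a Pearson r of 0.863.

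Both values moved with a single library. Without control tumor 4 the log2 fold changes were 0.56 for Ppp1r15a (unadjusted p = 0.00266) and 0.61 for Chac1 (unadjusted p = 0.0374) in edgeR, so 2 of 10 genes were under 0.05 where 3.05% of all genes were. The 5 tumors whose Rn45s share was below 10% are photoconverted tumors 1 to 3 and control tumors 1 and 3 only. In them the log2 fold changes of Ppp1r15a and Chac1 were 0.58 and 0.78 (unadjusted p = 0.00373 and 0.00257 in edgeR). These are again 2 of 10 genes, where 10.5% of all genes were under 0.05. After adjustment over all genes in edgeR neither passed (1.00 for both without control tumor 4, and 0.224 and 0.194 in the 5 tumors). Control tumor 4 had 623 CPM of Hspa1b, an inducible Hsp70 gene, against 60.6 to 79.8 CPM in the other controls. The part of that in the level of Ppp1r15a or Chac1 was not tested. With any other single tumor left out, both genes had a positive log2 fold change, the smallest being 0.08 for each without control tumor 3.

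Trib3 (chr2:152337422-152344032, minus strand), a pseudokinase gene induced by ATF4 and CHOP whose product feeds back on ATF4, varied most of the 10 between tumors. It had 62.6, 126, 56.0 and 204 CPM in photoconverted tumors and 96.7, 146, 77.8 and 218 CPM in control tumors. The highest value was 3.89-fold the lowest, and each photoconverted tumor was below the control of the same number. Trib3 had a log2 fold change of -0.27 (standard error 0.45), well inside that spread, and it ranged from -0.72 without photoconverted tumor 4 to 0.07 without control tumor 4. Across all genes tested, 91.7% had a smaller SD of log2 CPM over the 8 tumors than Trib3.

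Sesn2 (chr4:132492032-132510501, minus strand) encodes a sestrin that restrains mTORC1 and answers to ATF4 and p53. It had 33.3, 49.4, 34.6 and 72.3 CPM in photoconverted tumors and 35.1, 65.2, 34.2 and 64.1 CPM in control tumors. In both groups tumors 1 and 3 were low and tumors 2 and 4 high. Ddit4 (REDD1, chr10:59949669-59951834, minus strand) also restrains mTORC1 and is induced by ATF4, hypoxia, glucocorticoids and p53. It had 106, 137, 85.8 and 156 CPM in photoconverted tumors and 113, 218, 111 and 172 CPM in control tumors. For Ddit4, the two-sided exact permutation test of mean log2 CPM gave p = 0.343. The log2 fold change of Ddit4 was -0.34, the largest in size of the 10 (standard error 0.26, unadjusted p = 0.227 in edgeR), and that of Sesn2 was -0.07 (standard error 0.31). The Ddit4 value fell in size to -0.03 in the 5 tumors whose Rn45s share was below 10% and to -0.12 without control tumor 2, whose 218 CPM was the highest. Asns (chr6:7675169-7693254, minus strand), the asparagine synthetase gene and a standard readout of ATF4, had 202, 215, 176 and 262 CPM in photoconverted tumors and 224, 156, 191 and 263 CPM in control tumors. Its log2 fold change of 0.03 (standard error 0.19) was the smallest in size, and its sign turned in 4 of the alternatives.

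The genes of the ER arm were the steadiest. Herpud1 (chr8:94386438-94395377, plus strand), a component of ER-associated degradation, had 80.4, 86.9, 73.3 and 98.1 CPM in photoconverted tumors and 92.7, 87.0, 93.0 and 104 CPM in control tumors, a log2 fold change of -0.16 (standard error 0.12). Xbp1 (chr11:5520659-5525893, plus strand) had 117, 120, 114 and 122 CPM in photoconverted tumors and 123, 121, 129 and 125 CPM in control tumors. The highest Xbp1 value was 1.13-fold the lowest, and only 22 of the 14468 genes tested had a smaller SD of log2 CPM over the 8 tumors (0.05 for Xbp1, against a median of 0.30), a feature picked out after the values were seen. Mean Xbp1 was 118 ± 3.30 CPM (photoconverted) against 124 ± 3.38 CPM (control; SD of 4 tumors, two-sided exact permutation test, p = 0.0571, where 4 against 4 allow no p below 0.0286). The log2 fold change of Xbp1 was -0.07 (standard error 0.09, unadjusted p = 0.459 in edgeR). Photoconverted tumor 4 lay above control tumor 2, and the other photoconverted tumors lay below every control. None of the 10 genes had an outlying tumor in either group by Dixon's criterion.

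**Figure D2:**
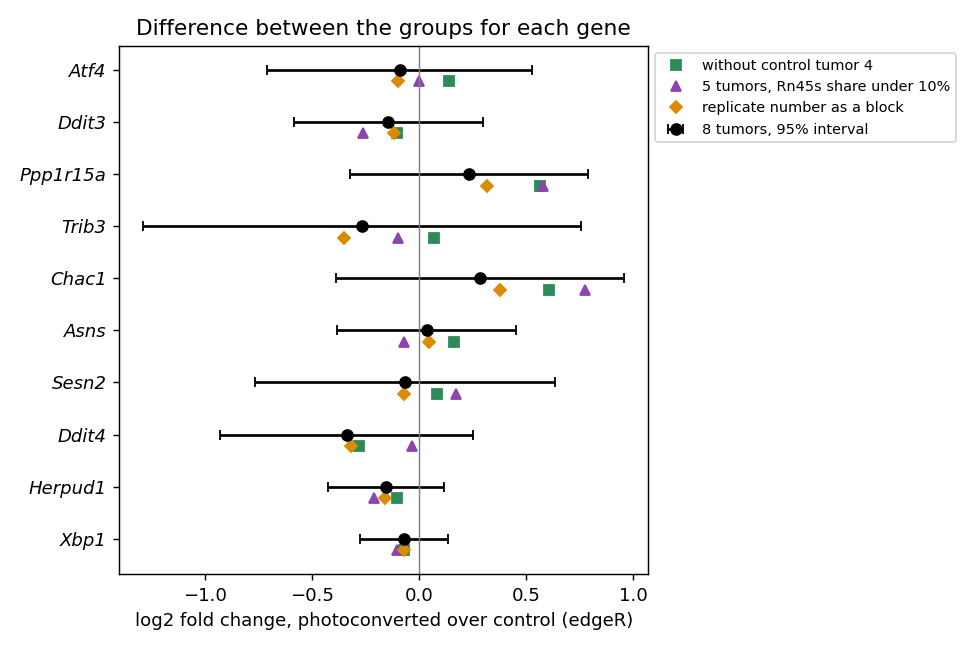
Log2 fold change (photoconverted over control, edgeR) of each gene with its 95% interval in 8 tumors (black), without control tumor 4 (green squares), in the 5 tumors whose Rn45s share was below 10% (purple triangles) and with the replicate number as a block (orange diamonds). All 10 intervals include 0, and Ppp1r15a and Chac1 move to between 0.56 and 0.78 when control tumor 4, or all libraries with a high Rn45s share, are left out.

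Deviations from the group means were positively correlated between tumors of the same replicate number, though weakly for pair 2 (r = 0.107), and photoconverted tumor 3 resembled control tumor 1 most. On that basis differences within same-numbered pairs were also examined. The pairing was read from the same expression values, so counts and p-values by pair are a description. Tumor 4 of both groups had an Rn45s share above 10%, while in pair 2 only the control did. The part of that share in these correlations was not tested. Trib3, Herpud1, Xbp1 and Ddit4 were below the paired control in 4 of 4 pairs, which makes 4 of 10 genes where 7.18% of all genes tested had this order. The differences in log2 CPM were -0.63, -0.22, -0.47 and -0.10 for Trib3 and -0.09, -0.67, -0.37 and -0.14 for Ddit4 in pairs 1 to 4. Those of Xbp1 and Herpud1 were close to 0 in pair 2. With the replicate number as a block in edgeR, Trib3 (log2 fold change -0.35, unadjusted p = 0.0155, adjusted p = 0.726) and Ddit4 (-0.32, unadjusted p = 0.0295, adjusted p = 0.788) had an unadjusted p under 0.05, 2 of 10 genes where 6.01% of all genes did. Neither passed the adjustment. Ppp1r15a and Chac1 were higher in the photoconverted tumor in 3 of 4 pairs, pair 4 being the exception. The share of all genes with 3 of 4 pairs higher was not counted, so this order has no baseline here.

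For Atf4, Ddit3, Trib3, Asns and Sesn2, the group means differed by less than the SD within either group. Sesn2, Trib3 and Ddit4 each had their 3 highest values in photoconverted tumor 4, control tumor 2 and control tumor 4, the libraries with an Rn45s share above 10%. This makes 3 of 10 genes, where 23.4% of all genes tested had the same order, a share near that of the 10 genes. Atf4 followed Trib3 (Pearson r = 0.970 of log2 CPM over 8 tumors), as did Sesn2 (r = 0.932), and Ddit4 followed Sesn2 (r = 0.884). The median r over the 45 pairs was 0.470, 8 pairs were above 0.8 and 4 were below 0, of which Ppp1r15a with Xbp1 was the lowest (r = -0.373). These values describe 8 libraries, which also differed in Rn45s share and depth. The part of either in these correlations was not tested. With the log2 Rn45s share as a covariate, 0 of 10 genes had an unadjusted p under 0.05 in edgeR, where 6.98% of all genes did.

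**Figure D3:**
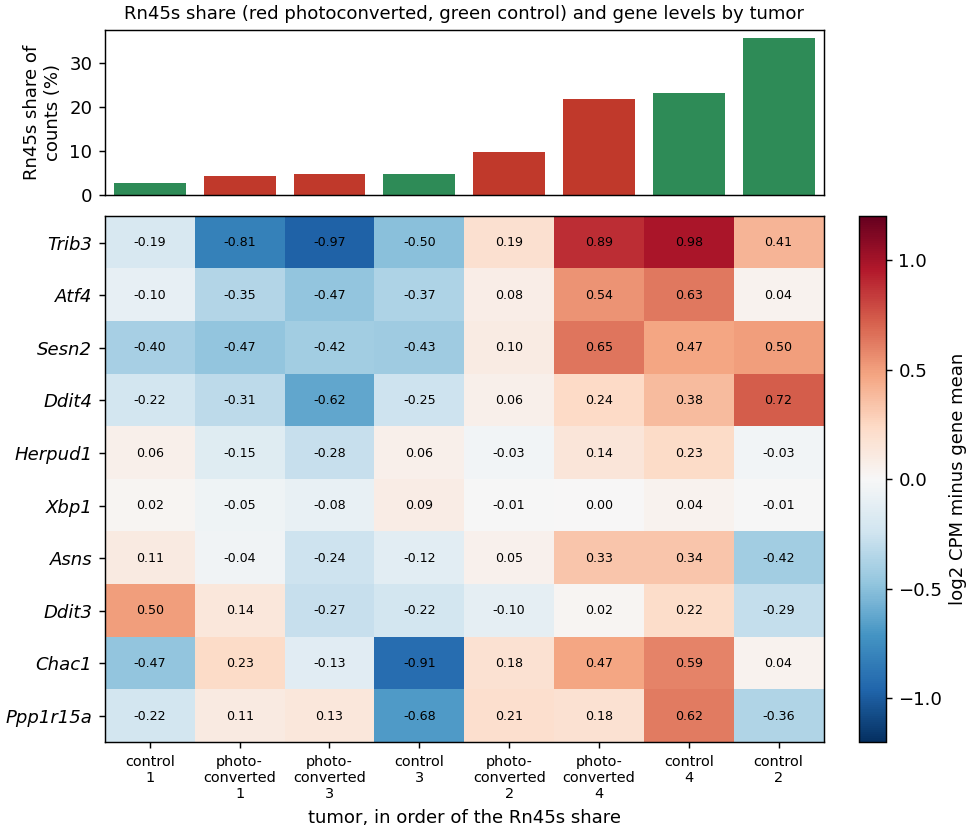
Rn45s share of counts in percent (top, bars) and the deviation of log2 CPM from the gene's own 8-tumor mean (bottom, color and printed values) with tumors in order of the Rn45s share. Trib3, Sesn2 and Ddit4 are highest in the 3 tumors at the right, Xbp1 is nearly level, and Chac1 and Ppp1r15a are lowest in control tumor 3.

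Per kilobase of exon (GENCODE M21, a length the counting may not have used), the order of mean levels after Atf4 was Ddit4 (78.4 CPM per kb), Asns (77.2), Trib3 (58.1), Herpud1 (38.3), Xbp1 (37.3), Ppp1r15a (20.7), Chac1 (15.5), Sesn2 (14.0) and Ddit3 (13.6). Atf4 was above Ddit4, Xbp1 above Ppp1r15a and Ppp1r15a above Chac1 in 8 of 8 tumors. The other neighbors changed places between tumors, such as Ddit4 and Asns, where Ddit4 was the higher in 2 of 8. Raw counts ranged from 175 for Ddit3 in control tumor 2 to 12088 for Atf4 in photoconverted tumor 2, so no value rested on a few reads.

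The wider pathway was read from lists of genes written with earlier results of these data known. Of 18 sensors and eIF2 factors tested, 0 passed edgeR's test in either direction and 0 had an unadjusted p under 0.05, with 9 higher and 9 lower and a median log2 fold change of 0.01. Eif2ak3, which encodes PERK, had the smallest p of that list, at 27.0 ± 1.36 CPM (photoconverted) and 30.2 ± 2.63 CPM (control; SD of 4 tumors, two-sided exact permutation p = 0.0857). Ppp1r15b, the constitutive counterpart of Ppp1r15a, was at 247 ± 32.8 and 240 ± 39.2 CPM (SD of 4 tumors each).

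Of 27 ATF4 targets of amino acid supply tested, 0 passed in either direction and 0 had an unadjusted p under 0.05, with a median log2 fold change of -0.06 and a range from -0.68 to 0.16. The most abundant, Aars and Phgdh, encode alanyl-tRNA synthetase and the first enzyme of serine synthesis. Phgdh had 337, 418, 307 and 696 CPM in photoconverted tumors and 310, 571, 341 and 732 CPM in control tumors, and tumor 4 of each group was highest, as for Trib3. The summed CPM of this list was 4880, 5539, 4465 and 7355 in photoconverted tumors and 4965, 5682, 4678 and 7533 in control tumors.

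Of 21 other ATF4 and CHOP targets tested, 0 passed and 1 had an unadjusted p under 0.05, which was Atf3, a stress-induced factor that is also an immediate early gene. Atf3 had 70.6, 43.8, 96.7 and 18.0 CPM in photoconverted tumors and 25.4, 14.8, 17.5 and 20.9 CPM in control tumors. Photoconverted tumors 1 to 3 were above every control, and photoconverted tumor 4 lay among the controls. The log2 fold change of Atf3 was 1.54 (standard error 0.44, adjusted p = 0.999 in edgeR), whereas that of the whole list had a median of -0.04.

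Of 29 ATF6 and XBP1 targets tested, 0 passed and 0 had an unadjusted p under 0.05, within a range of log2 fold changes from -0.27 to 0.18 and with a median of -0.03. Hspa5, which encodes the ER chaperone BiP, stood at 1030 ± 114 CPM after light and 1050 ± 97.0 CPM without it (SD of 4 tumors). Canx, the calnexin gene, had 983 ± 88.8 and 966 ± 161 CPM (SD of 4 tumors each). Edem2, with a role in the disposal of misfolded glycoproteins, had the smallest p of the list, at 59.4 ± 12.1 and 71.5 ± 15.8 CPM (SD of 4 tumors each).

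For reference, the cytosolic heat shock list holds chaperone genes such as Hspb1 (log2 fold change 3.55) and Hspa1b (4.14). Of its 18 genes, 0 passed edgeR's adjusted threshold, but 13 had an unadjusted p under 0.05, all higher, where 2.23% of all genes tested did. The median log2 fold change of the list was 0.68, against -0.01 over all genes tested. This list too was written with earlier results of these data known. Photoconverted tumor 4 stood apart from its group, with a summed CPM of 5732 that lay among the controls (4376 to 6969), against 13563 to 22104 in photoconverted tumors 1 to 3. The lists were not compared by a test.

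**Figure D4:**
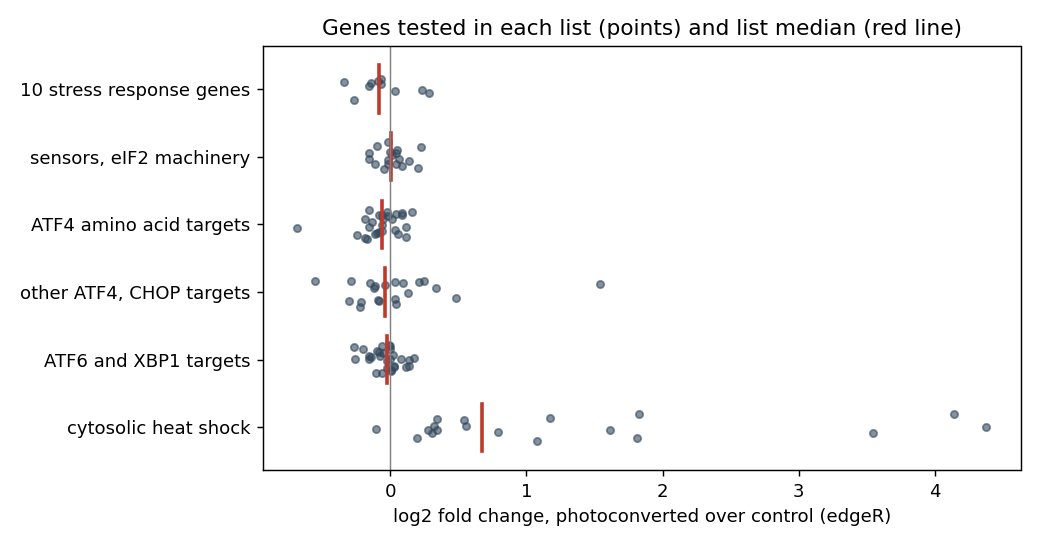
Log2 fold change (photoconverted over control, edgeR) of each gene tested in 6 lists, with the list median as a red line. The ISR and UPR lists center between -0.08 and 0.01, and the cytosolic heat shock list has a median of 0.68 and extends past 4.

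Other inputs to Ddit4 and Sesn2 were read in the same way. Of 11 hypoxia targets tested, 0 passed, and at an unadjusted p under 0.05 in edgeR 1 was higher (Adm, adrenomedullin) and 2 were lower (Car9 and Ndufa4l2), with 10 of 11 lower and a median log2 fold change of -0.29. Car9 stood at 28.0 ± 6.43 CPM after light and 48.3 ± 24.4 CPM without it (SD of 4 tumors). Of 11 p53 targets, 0 passed and 1 was lower at an unadjusted p under 0.05 (Sesn1, a sestrin related to Sesn2, at 18.1 ± 0.422 and 23.9 ± 5.50 CPM, SD, n = 4 each), with a median of -0.05. Mdm2, which encodes the ubiquitin ligase of p53, had no overlap between groups, at 48.9 to 59.0 CPM in photoconverted and 43.5 to 48.1 CPM in control tumors (two-sided exact permutation p = 0.0286, the smallest that 4 against 4 allow, and adjusted p = 0.999 in edgeR). Groups free of overlap were found for 1.33% of all genes tested. Of 9 glucocorticoid targets, 0 passed and 2 were higher at an unadjusted p under 0.05 (Errfi1 and Dusp1), with a median of 0.22. Over all genes tested, 2.23% had an unadjusted p under 0.05 in edgeR. Of the 9 genes, 7 were higher and 2 lower, the latter being Tsc22d3 (log2 fold change -0.15) and Fkbp5 (-0.21). Errfi1, like Mdm2, had no overlap between groups. The part of these pathways in the level of Ddit4 was not tested.

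The genes whose log2 CPM most resembled a member over the 8 tumors were Pdcd2l, Efcab11 and Idh2 for Ddit4 (Pearson r of 0.987, 0.985 and 0.985), Nat9, Rwdd2b and Rab4a for Herpud1 (0.976, 0.969 and 0.964), Trmt61b, Rnd1 and Gtpbp4 for Chac1 (0.976, 0.961 and 0.960) and Polr1e, C230035I16Rik and Enthd1 for Ppp1r15a (0.979, 0.978 and 0.974). With 14468 genes and 8 libraries, these values are a description.

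Tumor tissue also held transcripts of other cells, whose part in the values of the 10 genes was not tested. Summed CPM of 8 neutrophil markers was 50.6 to 163 in photoconverted and 40.8 to 70.9 in control tumors. Photoconverted tumors 1 to 3 (109, 125 and 163) were above every control, and photoconverted tumor 4 (50.6) lay among the controls. All 8 markers had a positive log2 fold change (median 1.598), and 6 of 8 were higher at an unadjusted p under 0.05 in edgeR. That level was reached by 2.23% of all genes tested. For 10 skeletal muscle markers (all 10 with a positive log2 fold change, median 1.08, and 1 at that level) the sums were 177 to 1442 and 179 to 418. Sums were 3.08 to 18.0 and 2.93 to 4.27 for the 4 keratinocyte markers tested (all 4 positive, median 1.44, 1 at that level) and 16.0 to 66.1 and 14.6 to 35.1 for the 5 adipocyte markers tested (all 5 positive, median 1.03, 0 at that level). Macrophage markers (7 genes, 565 to 1383 and 453 to 1253) and T cell markers (7 genes, 15.6 to 32.4 and 9.52 to 32.5) had 0 genes at that level. Of the plasma cell markers, a cell type that depends on XBP1, Jchain had at most 14 raw counts, Derl3 at most 5, Pou2af1 at most 4 and Mzb1 at most 3 in any tumor, while the 3 tested (Sdc1, Prdm1 and Irf4) had 0 genes at that level and summed to 142 to 178 and 115 to 174 CPM. Sdc1, which other cells also express, made up most of that sum.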

How the data were processed

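RNA of 8 tumors was measured, 4 per group, with groups and replicate numbers from the sample labels and columns matched by the letter each label gives. The following were deposited: counts for each gene symbol, not normalized, and normalized signal, which was found to be those counts over DESeq2 size factors. The submitters' processing notes name Trim Galore, HISAT2, featureCounts, DESeq2 and mm10, and the annotation is not given in the sources used here. The paper names a TruSeq stranded kit and the labels a SMARTER one.

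Counts were tested across 14468 genes with edgeR 4.0.16 (TMM, filterByExpr, glmQLFit, glmQLFTest, Benjamini-Hochberg, threshold 0.05) in R 4.3.3. The standard error is the log2 fold change divided by the root of F. Log2 CPM used a prior count of 2. DESeq2 1.42.0 and limma 3.58.1 (log2 of the deposited signal plus 1) were alternatives. Single genes were tested by two-sided exact permutation of the difference in mean log2 CPM over 70 arrangements (SciPy 1.17.1). The procedure was checked on simulated data.

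The 10 genes and all lists were chosen with earlier results of these data known. Named by rule were the 10 genes, up to 3 genes per list by p and 2 by level, and the 3 genes most like each of the 4 members with the smallest p. Also named were Rn45s, genes that share exonic bases with a member, the lower glucocorticoid targets Tsc22d3 and Fkbp5, and plasma cell markers that were not tested. Motifs were chosen after the values were seen.

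Deviations from group means correlated across genes at 0.597, 0.107, 0.407 and 0.623 in same-numbered pairs 1 to 4. The numbers were therefore treated as pairs in an alternative fit and in the differences by pair, while the main fit used the group only. This pairing comes from the data it was then applied to, since the labels state no pairing.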

Additional observations from a re-analysis of the deposited data

How the results depend on the processing

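No alternative gave any of the 10 genes an adjusted p under 0.05. Over all genes, 0 passed with all 8 tumors in edgeR, against 24 with DESeq2's Wald test and 42 in the 5 tumors whose Rn45s share was below 10%; leaving out 1 tumor gave 0 to 11, the 11 without photoconverted tumor 4. Of the 10 genes, 0 had an unadjusted p under 0.05 in edgeR, against 2 with the replicate block, 2 in the 5 tumors and 0 to 2 with 1 tumor left out, the 2 without control tumor 4. The replicate block changed no other call. The number of the 10 genes with a positive log2 fold change was 3 with all tumors and between 2 and 6 over the alternatives. In the 5 tumors the log2 fold change turned to 0.00027 for Atf4, -0.072 for Asns and 0.17 for Sesn2, and it was 0.042 for Sesn2 with the Rn45s covariate. With 1 tumor left out it ran from -0.33 to 0.14 for Atf4, -0.25 to 0.027 for Ddit3, -0.72 to 0.068 for Trib3, -0.082 to 0.16 for Asns and -0.34 to 0.090 for Sesn2. The causes were not tested. Ddit4, Herpud1 and Xbp1 stayed below 0 and Chac1 and Ppp1r15a above 0 in every alternative run, with ranges over 1 tumor left out of -0.48 to -0.12, -0.24 to -0.09, -0.09 to -0.05, 0.08 to 0.61 and 0.08 to 0.56, in that order, and Ddit4 at -0.03 in the 5 tumors. No gene of the 10 had a tumor far from the others of its group by Dixon's criterion, in 20 groups examined.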
